A study of Mus musculus with 4 samples.

Results

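Itga1+Cxcr6+ CD8+ Tc were a small set of donor CD8+ T cells (Tc) in the spleens of leukemia-bearing mice, 159 of the 4267 CD8+ Tc and of 11632 cells of all kinds that passed the cell filter. They were chosen by their unique molecular identifiers (UMIs, each standing for 1 captured mRNA molecule). A CD8+ Tc had at least 1 UMI of Cd3d, Cd3e or Cd3g and of Cd8a or Cd8b1 and 0 of Cd4 and of the erythroid gene Klf1. A member also had at least 1 UMI of Itga1 and of Cxcr6 and 0 of Nr4a2, Cx3cr1, Tcf7, Mki67 and Top2a. The rule thus read the measured values of 14 genes, which are described below and were not tested.

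The study asked how loss of TIM-3, the inhibitory receptor encoded by Havcr2, in CD8+ Tc changes the response of donor Tc to leukemia after allogeneic transplantation. BALB/c recipients were lethally irradiated and received bone marrow from C57BL/6 donors and 10000 WEHI-3B cells, a BALB/c myelomonocytic leukemia line. They were given 200000 donor Tc on day 2, and spleen Tc were sequenced on day 23. Each of the 4 droplet libraries was taken as 1 mouse. The donor genotypes were compared within CD8+ Tc. In Havcr2fl/fl;E8icre/+ donors (2 mice), both Havcr2 alleles carry loxP sites and Cre is driven by the E8I enhancer of the Cd8a locus, which is active in CD8+ Tc. In Havcr2fl/fl donors (2 mice), the same floxed alleles are present without Cre. The study gives both the marrow and the Tc of each recipient as of the named genotype, so a genotype comparison here holds the marrow graft too. The leukemia and the irradiation were common to both genotypes, and untreated or leukemia-free mice were not part of these samples. Where a value is given for each of the 4 mice, they stand in the order Havcr2fl/fl;E8icre/+ replicates 1 and 2, then Havcr2fl/fl replicates 1 and 2.

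Itga1 encodes the α1 chain of the collagen- and laminin-binding integrin VLA-1, and CXCR6 is the receptor of the membrane-bound chemokine CXCL16. Both are known from memory CD8+ Tc that stay in skin, liver, lung and gut instead of recirculating, and CXCR6 also marks many activated and exhausted Tc. Tc that stay in tissue typically lower the egress receptor S1PR1 and its activator KLF2. CD8+ Tc with innate features also carry killer lectin receptors, first described on natural killer (NK) cells, which let them sense stress ligands and nonclassical MHC molecules on target cells.

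The genes of the rule set the following picture. Members held between 1 and 14 UMIs of Itga1 (chr13:114953096-115101964, - strand, GRCm38), and 85 of the 159 held exactly 1. They held between 1 and 13 UMIs of Cxcr6 (chr9:123806475-123811760, + strand), with medians of 3, 5, 5 and 2 in the 4 mice, and 26 held exactly 1. In all, 408 CD8+ Tc had both genes, the 159 members included. Just outside the rule, 249 of the 408 left through the 5 excluded genes, 103 of them through a single UMI. Among the CD8+ Tc that had none of the 5 excluded genes, 693 had Cxcr6 without Itga1, 16 had Itga1 without Cxcr6 and 266 had neither. These 975 cells are called marker-negative since they too lack the 5 excluded genes, and they are the nearest comparison. Nr4a2+ cells (694) and Cx3cr1+ cells (198) are CD8+ Tc without Mki67, Top2a and Tcf7 that carry the exhaustion-associated nuclear receptor NR4A2 or, without it, the fractalkine receptor of circulating effectors.

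Depth differed by mouse and much less between members and marker-negative cells. Members had median counts of 3498, 5351.5, 6036 and 2459 UMIs, and marker-negative cells had 3583, 5137, 5981.5 and 2529. All other CD8+ Tc were deeper in each mouse, with 4863.5, 6215.5, 7056 and 3075.5 UMIs. Members summed to 191654, 320468, 101600 and 92555 UMIs, so that 0 UMIs of a gene still allowed up to 15.7, 9.36, 29.5 and 32.4 counts per 1000000 UMIs (CPM, limit of 3 UMIs, counting error only). Between 1 and 6 barcodes were shared by any pair of libraries, and 0 of them belonged to members.

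A pair of member cells stood apart. In Havcr2fl/fl;E8icre/+ replicate 1, 28.7% of the UMIs of 1 cell came from the erythroid list, mostly hemoglobin. In Havcr2fl/fl replicate 1, 23.6% of the UMIs of 1 cell came from the myeloid and leukemia list, with 2320 UMIs of S100a8 in that cell. No other member exceeded 0.5% for the erythroid, myeloid, B or dendritic and platelet list. Without these 2 cells, the summed erythroid list fell from 2125 to 211 UMIs in members and the myeloid list from 4023 to 55. Of the 4108 other CD8+ Tc, 51 passed 1% for the erythroid list, 6 for the myeloid list, 5 for the B list and 5 for the dendritic and platelet list. In the members of all 4 mice, 4 of the 9 genes of the B list were at 0 UMIs, among them Cd79a, Ms4a1 and Pax5, as were Csf1r and Adgre1 of the 12 of the myeloid list and 4 of the 10 of the dendritic and platelet list, among them Flt3 and Siglech. The others of these lists had UMIs. Igkc, an immunoglobulin light chain gene of plasma and B cells, had 43, 52, 15 and 55, Cd74, the MHC class II chaperone gene, 13, 6, 1 and 1, and Cd79b 3, 0, 1 and 0. Cd68 had 8 and Xcr1 2 over all members. Several results that changed without the 2 cells are given both ways. Fits called without the 2 cells also leave out the 67 other CD8+ Tc above 1%.

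Havcr2 (chr11:46454935-46481255, + strand), the gene under deletion, was sparse in members, with 5, 7, 5 and 4 UMIs, or 24.3, 22.0, 49.6 and 39.9 CPM. In the other CD8+ Tc, it stood at 61.2, 7.65, 54.3 and 121 CPM. The other CD8+ Tc of Havcr2fl/fl;E8icre/+ replicate 1 were thus not below those of Havcr2fl/fl replicate 1. Where the floxed segment lies relative to the sequenced 3′ end is not given in the sources used here, so these values are no check of the labels. The log2 difference between members and all other CD8+ Tc was -0.58 ± 0.35 (SE, n = 4 mice, edgeR adjusted p = 0.391).

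The label of resident-like cells was set against markers. Of the 3 marker genes that the rule did not read, Klrc2 and Jaml stood higher in members in 4 of 4 mice and Cd160 did not. Jaml, an adhesion receptor of activated Tc that binds CAR on epithelia, stood at 180.2, 179, 131 and 188 CPM in members against 52.8, 77.8, 73.7 and 80.9 in marker-negative cells. The ranges did not overlap. Cd160, an activating receptor of cytotoxic lymphocytes, stood at 283, 213, 201 and 375 against 237, 377, 357 and 323, and was higher in 2 of 4 mice. These markers were chosen on these cells, so where they count among the called genes of a list below, the call supports nothing, and the 2 lists that hold them are also given without them. Itgae, the αE integrin of epithelial resident Tc, had a UMI in 2 of 159 members and in 7 of 975 marker-negative cells. Cd69, which retains Tc in tissue by blocking S1PR1, had one in 23 and 126 of these cells. Zfp683, which encodes the residency factor HOBIT and was added after its absence from the list under its human name was seen, had one in 8 and 3. The 8 lay in Havcr2fl/fl;E8icre/+ mice (3 and 5), and with cells thinned to 2000 UMIs 2 of 151 members and 3 of 869 marker-negative cells had one. At these depths, cells without a UMI of such genes may still express them, so the label was not settled and the cells are called by their rule here.

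Members made up 3.37% of CD8+ Tc in Havcr2fl/fl;E8icre/+ replicate 1 (52 of 1542 cells, 95% Wilson interval 2.58 to 4.40%) and 6.04% in replicate 2 (58 of 960, 4.70 to 7.73%). In Havcr2fl/fl mice they made up 3.04% (15 of 493, 1.85 to 4.96%) and 2.67% (34 of 1272, 1.92 to 3.71%). The mean was 4.71% ± 1.89 (SD, n = 2) with E8icre/+ and 2.86% ± 0.261 (SD, n = 2) without, a log2 ratio of 0.72. The genotypes did not overlap, but Havcr2fl/fl;E8icre/+ replicate 1 lay close to both controls and within their intervals. In a two-sided exact permutation test, p was 0.333, the smallest that 2 against 2 mice allow. The share depends on depth, since it counts cells with a UMI, and depth differed among the mice as given above. With each cell thinned to 2000 UMIs the log2 ratio was 1.31. Without Havcr2fl/fl;E8icre/+ replicate 2 it was 0.239. With Itga1 and Cxcr6 alone and no exclusions, the shares were 8.17, 15.2, 9.53 and 6.997%, so that the genotypes overlapped (exact permutation p = 0.667).

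**Figure D1:**
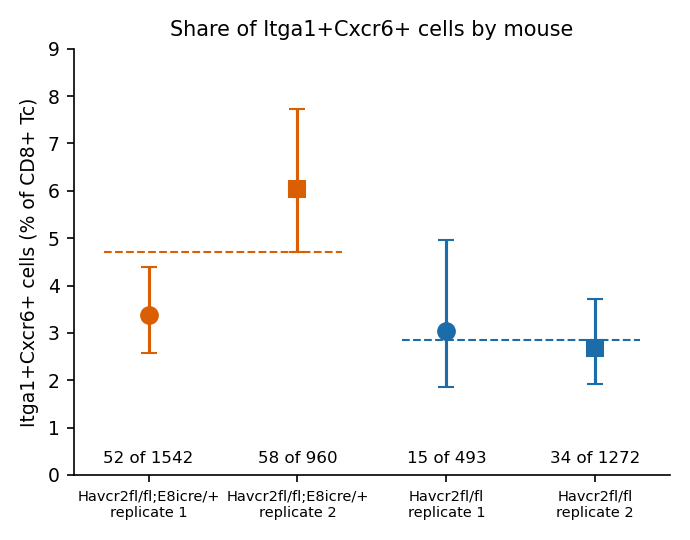
Itga1+Cxcr6+ cells as a percent of CD8+ Tc in each mouse (points, with 95% Wilson intervals that cover counting error only), with member and CD8+ Tc numbers at the foot and dashed lines at the mean of each genotype. Havcr2fl/fl;E8icre/+ replicate 2 stands highest at 6.04%, and the other mice lie between 2.67 and 3.37%.

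Killer lectin receptors and their signaling partners include 7 genes that were higher in members than in marker-negative cells. UMIs were summed per mouse and population, scaled to CPM with TMM factors, and tested with edgeR's quasi-likelihood test with the mouse as a block and Benjamini-Hochberg adjustment over all 7654 genes tested. Of these, 80 were called (1.05%), 40 higher (0.523%) and 40 lower (0.523%) in members. Without Havcr2fl/fl;E8icre/+ replicate 1 the total was 41, without its replicate 2 it was 36 and without Havcr2fl/fl replicate 2 it was 43. Over all genes, the CPM values of the 4 mice did not overlap between the populations for 2.05% with members higher and 3.19% with members lower. Of 13 killer lectin and NK receptor genes tested, 7 rose and 0 fell, with a median log2 fold change of 1.23 beside -0.02 over all genes tested. The list was written with earlier results of these data known, and the 7 include the marker Klrc2. Without the markers Klrc2 and Cd160, 6 of 11 rose.

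Klrk1 encodes NKG2D, which binds stress-induced ligands such as RAE-1. It stood at 127, 123, 342 and 296 CPM in members and 49.6, 38.4, 56.4 and 100.2 in marker-negative cells. Each member sum lay above each marker-negative sum, and both Havcr2fl/fl mice stood above both Havcr2fl/fl;E8icre/+ mice among members. The log2 fold change was 1.65 ± 0.30 (SE, n = 4 mice, edgeR adjusted p = 0.00125). Its 130 UMIs came from 41 of 159 members. In cells without any Cd3 UMI, which are far deeper (medians of 10050 to 16961 UMIs in the 4 mice), 87 of 4256 had a Klrk1 UMI.

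Klrd1 and Klrc1 encode CD94 and NKG2A, the chains of an inhibitory receptor for the nonclassical MHC molecule Qa-1, and Klrc2 encodes the activating partner NKG2C. Klrc1 stood at 170.5, 277, 302 and 128 CPM against 71.7, 87.4, 121 and 95.4 (log2 1.29 ± 0.18, edgeR adjusted p = 3.23e-05). Members were higher in each mouse without overlap. Klrd1 stood at 419, 438, 895 and 286 against 177, 232, 390.3 and 249 (0.95 ± 0.17, adjusted p = 0.00125). It was higher in 4 of 4 mice although the ranges overlapped, with Havcr2fl/fl replicate 1 highest in both populations. Klrc2 stood at 170.5, 213, 141 and 207 against 71.7, 91.3, 59.6 and 76.1, also without overlap. Klrc1 and Klrc2 are close paralogs, so reads may be divided between them with some uncertainty.

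The adaptor genes moved less evenly. Fcer1g, the signaling γ chain of Fc and NK receptors, rose by log2 2.16 ± 0.34 (edgeR adjusted p = 0.000236) over 19.5, 361, 141 and 128 CPM in members and 8.66, 58.6, 12.5 and 71.3 in marker-negative cells. Of its 148 member UMIs, 117 lay in Havcr2fl/fl;E8icre/+ replicate 2, and without that mouse the call was lost (1.54). All 14 UMIs of Havcr2fl/fl replicate 1 lay in the cell rich in myeloid RNA, and without the 2 cells described above the log2 fold change was 1.96 (adjusted p = 5e-05). Tyrobp, which encodes the adaptor DAP12, was also called higher, but 58 of its 60 UMIs lay in that same cell, and it could not be tested without it. Klrb1c, which encodes NK1.1, had 5, 20, 5 and 0 UMIs in members (2.00 ± 0.49, adjusted p = 0.0324), none of them in Havcr2fl/fl replicate 2, and the call was lost in 3 of the 4 fits that leave out 1 mouse (1.63 to 2.07 in these). Without the 2 cells, 6 of 12 tested genes of the list rose.

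The killer lectin genes lie together in the NK gene complex of chromosome 6, and promoters are shown because these genes moved together. RefSeq windows of GRCm38.p6, 250 bases before to 50 after the start site, were found for 7 of the 9 genes of the list that were called higher against all other CD8+ Tc, Klrb1c, Klre1, Klrk1, Klrc1, Klrc2, Fcer1g and Hcst, and not for Klrd1 and Tyrobp. The Runx core TGTGGT, read on both strands (ACCACA on the other), is in 6 of the 7 and in 16.8% of 32851 windows, or in 18.9% of 27025 genes with a window. The longer TGTGGTT, which contains it, is in Klre1 and Klrk1 and in 5.27% of windows. The T-box letters AGGTGTGA (1.28% of windows) and the overlapping TCACACC (3.98%), the Ets letters ACCGGAAG (2.3%), the CRE letters TGACGTCA (1.79%) and the NF-κB consensus of the H-2 and κ enhancers (0.155%) are in 0 of the 7. These are matches of letters in short windows and were chosen after the genes. Below, capitals mark the Runx core in the windows of Klrk1 (chr6:129623815-129624114), Klrc1 (chr6:129678924-129679223) and Klrc2 (chr6:129660547-129660846), each 5′ to 3′ on the minus strand, on which these genes lie. The core starts 129 bases before the start site in Klrk1, 87 before it in Klrc1 and 36 before it, as the first of 2 matches, in Klrc2.
Klrk1: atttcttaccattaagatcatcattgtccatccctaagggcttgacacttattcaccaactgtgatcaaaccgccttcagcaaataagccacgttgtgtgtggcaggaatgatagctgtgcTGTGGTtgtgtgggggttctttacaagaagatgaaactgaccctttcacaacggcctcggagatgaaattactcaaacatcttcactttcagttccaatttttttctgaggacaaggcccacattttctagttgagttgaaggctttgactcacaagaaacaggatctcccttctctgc
Klrc1: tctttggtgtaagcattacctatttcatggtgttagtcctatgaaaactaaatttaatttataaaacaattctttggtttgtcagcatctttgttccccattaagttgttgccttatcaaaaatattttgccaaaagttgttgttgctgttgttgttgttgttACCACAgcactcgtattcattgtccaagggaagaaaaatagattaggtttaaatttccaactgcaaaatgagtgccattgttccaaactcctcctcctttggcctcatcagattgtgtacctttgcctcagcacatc
Klrc2: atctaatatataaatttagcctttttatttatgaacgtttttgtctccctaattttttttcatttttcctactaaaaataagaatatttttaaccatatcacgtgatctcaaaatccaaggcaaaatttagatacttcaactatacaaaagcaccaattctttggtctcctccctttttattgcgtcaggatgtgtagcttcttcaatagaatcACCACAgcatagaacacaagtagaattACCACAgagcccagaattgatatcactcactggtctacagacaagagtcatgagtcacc

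Ccr2 (chr9:124101950-124113557, + strand), the receptor of CCL2 that guides cells to inflamed tissue, was at 190.0, 194, 272 and 158 CPM against 84.3, 45.2, 32.9 and 50.1. The lowest member sum stood well clear of the highest marker-negative sum, and the log2 fold change was 1.85 ± 0.30 (SE, n = 4, edgeR adjusted p = 0.000244). Of 5 chemokine receptor genes tested, it alone rose and 0 fell (median log2 fold change -0.07).

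Il7r, the α chain of the receptor for the survival cytokine IL-7, was at 263, 240.4, 905 and 148 CPM against 106, 109, 323 and 131 (1.16 ± 0.21, edgeR adjusted p = 0.00125). Both populations were highest in Havcr2fl/fl replicate 1, where 37 of the 90 member UMIs lay in 1 cell, and in Havcr2fl/fl replicate 2 the populations were close. Without the former mouse, the log2 fold change was 0.98 and still called. Il18rap, a chain of the IL-18 receptor, and Ifngr1, of the interferon-γ receptor, rose by 0.96 ± 0.24 and 0.56 ± 0.14 (adjusted p = 0.0354 and 0.0284), and both calls were lost in 3 of the 4 fits that leave out 1 mouse (0.90 to 1.01 and 0.39 to 0.63 in these). Of 12 cytokine receptor genes tested, these 3 rose and 0 fell (median -0.08).

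Among transcription factors, Satb1 and Id2 rose and Eomes and Ikzf2 fell. Satb1, a chromatin organizer of developing and naive Tc, was at 229, 185, 181 and 109 CPM against 86.6, 79.8, 108 and 53.9, higher in each mouse without overlap (1.12 ± 0.17, edgeR adjusted p = 8.93e-05). Id2, an antagonist of E proteins that sustains effector Tc, was at 2041, 1714, 1669.7 and 1629.6 against 1352, 1203, 1437 and 1063 (0.49 ± 0.10, adjusted p = 0.00362). The ranges again did not overlap, but the call of Id2 was lost without Havcr2fl/fl;E8icre/+ replicate 1 (0.44) or Havcr2fl/fl replicate 2 (0.44).

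Eomes (chr9:118478212-118486132, + strand), the T-box factor of memory-like and exhausted CD8+ Tc, fell in each mouse. It stood at 24.4, 33.9, 30.2 and 9.88 CPM in members against 217, 173, 100.3 and 128, a log2 fold change of -2.54 ± 0.29 (SE, n = 4, edgeR adjusted p = 1.38e-06). The populations were far apart, and the 20 member UMIs lay in 15 cells. Ikzf2, which encodes HELIOS, was at 4.87, 21.6, 0 and 29.6 against 132, 64.4, 28.2 and 112 (-2.52 ± 0.55, adjusted p = 0.0114). It was lower in 4 of 4 mice with a slight overlap between mice, and the call was lost without Havcr2fl/fl;E8icre/+ replicate 1 (-1.86) or Havcr2fl/fl replicate 2 (-2.66).

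Cd7, an immunoglobulin-family receptor of T and NK cells, was named outside the rule for named genes. It was at 375, 391, 312 and 612 CPM against 869.5, 1064, 658 and 901, without overlap (-1.09 ± 0.15, edgeR adjusted p = 3.23e-05). Sh2d1a, which encodes the SLAM adaptor SAP, was at 97.4, 117, 101 and 119 against 224, 202, 171 and 305, also without overlap (-0.99 ± 0.16, adjusted p = 0.000246). Of 13 genes of cytotoxic granules and death ligands, Ctsw (cathepsin W) rose and Nkg7 and Gzmk fell, and the main killing genes Gzmb and Prf1 differed by 0.26 ± 0.23 and -0.20 ± 0.21 (adjusted p = 0.773 and 0.819). Nkg7, a granule membrane protein, was at 3147, 3637, 2505 and 3733 CPM against 4063, 4076, 3665 and 5089, lower in 4 of 4 mice with overlapping ranges (-0.37 ± 0.07, adjusted p = 0.00418). Ctsw was at 531, 573, 422 and 583 against 261, 395, 290.0 and 359 (0.71 ± 0.12, adjusted p = 0.000938), and Gzmk at 58.5, 43.2, 40.2 and 88.9 against 154, 159.5, 108 and 213 (-1.51 ± 0.36, adjusted p = 0.024). Neither overlapped, but Ctsw lost its call without Havcr2fl/fl;E8icre/+ replicate 1 (0.57) and Gzmk in 3 fits that leave out 1 mouse (-1.32 to -1.61).

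The remaining largest changes by the rule for named genes were sparse or carried by few cells. Anxa1 (annexin A1) was at 24.4, 21.6, 453 and 19.8 CPM against 1.58, 3.84, 7.84 and 10.6, and 37 of its 59 member UMIs lay in the cell rich in myeloid RNA. Without the 2 cells described above, its log2 fold change went from 3.87 ± 0.55 (edgeR adjusted p = 6.49e-05) to 2.68 (adjusted p = 0.00249), and without Havcr2fl/fl replicate 1 to 2.08, where the call was lost. The interferon-induced membrane protein genes Ifitm3 and Ifitm2 went from 3.13 and 1.89 to 2.33 and 1.65 without them and kept their calls, although Ifitm2 lost its call without either Havcr2fl/fl mouse (1.31 and 2.06). Tff1, which encodes a small secreted trefoil peptide, had 0 UMIs in members and 142 in marker-negative cells, at least 8.53-fold lower over the pooled sums (against a limit of 3 UMIs), and its call was lost without Havcr2fl/fl;E8icre/+ replicate 2 or Havcr2fl/fl replicate 2. Chchd10, a mitochondrial protein gene, was at 0, 9.25, 0 and 9.88 CPM against 69.3, 26.9, 48.6 and 47.2 (-3.04 ± 0.61, adjusted p = 0.00442), without overlap, and lost its call without Havcr2fl/fl;E8icre/+ replicate 1 (-2.26). Kremen2 had 1 UMI in members against 83 (15.0-fold lower over the pooled sums, 95% counting interval 2.61 to 598), and its call was lost in each fit that leaves out 1 mouse. H2-Aa, an MHC class II gene of antigen-presenting cells, had 1 UMI against 208 and could not be tested without the cells rich in RNA of other types. Its call was lost in 2 of the 3 fits without 1 mouse in which it could be tested.

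Several lists showed little or nothing against marker-negative cells. Of 19 residency genes tested, 0 were called in either direction (median log2 fold change 0.04), with Cd69 at -0.03 ± 0.30 and Rgs1 at -0.03 ± 0.19. Of the 19 egress and circulation genes, Il7r and Ly6c2 rose and Eomes fell (median 0.19). Ly6c2 was at 214, 311, 1267 and 504 CPM against 169, 151, 149 and 379 (1.18 ± 0.29, adjusted p = 0.0313), highest in Havcr2fl/fl replicate 1, and its call was lost without that mouse (0.52) or Havcr2fl/fl;E8icre/+ replicate 2 (1.26). Among 15 checkpoint and exhaustion genes, Ikzf2 alone fell and 0 rose, with Pdcd1, the PD-1 gene, at -0.08 ± 0.17 (edgeR adjusted p = 0.932). Of 4 chemokine genes, Ccl5 fell (-0.67 ± 0.17, adjusted p = 0.0386), a call lost in 3 fits that leave out 1 mouse (-0.54 to -0.65). Of 14 adhesion and nectin receptor genes, the marker Jaml rose and Sh2d1a fell, and without Jaml 0 of 13 rose. Of 18 cell cycle genes, 9 integrin genes, 12 TGF-β pathway genes, 8 early response genes and 6 cytokine genes, 0 were called. Of 15 interferon-stimulated genes, Ifi27l2a fell (-0.99 ± 0.23, adjusted p = 0.0249), and the call was lost without Havcr2fl/fl;E8icre/+ replicate 2 (-0.45) or Havcr2fl/fl replicate 2 (-0.92). Of the 32 genes called here that were carried through each alternative setting, 12 kept the call in each of the 4 fits that leave out 1 mouse: Klrk1, Klrc1, Klrd1, Klrc2, Ccr2, Il7r, Satb1, Ifitm3, Eomes, Cd7, Sh2d1a and Nkg7.

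**Figure D2:**
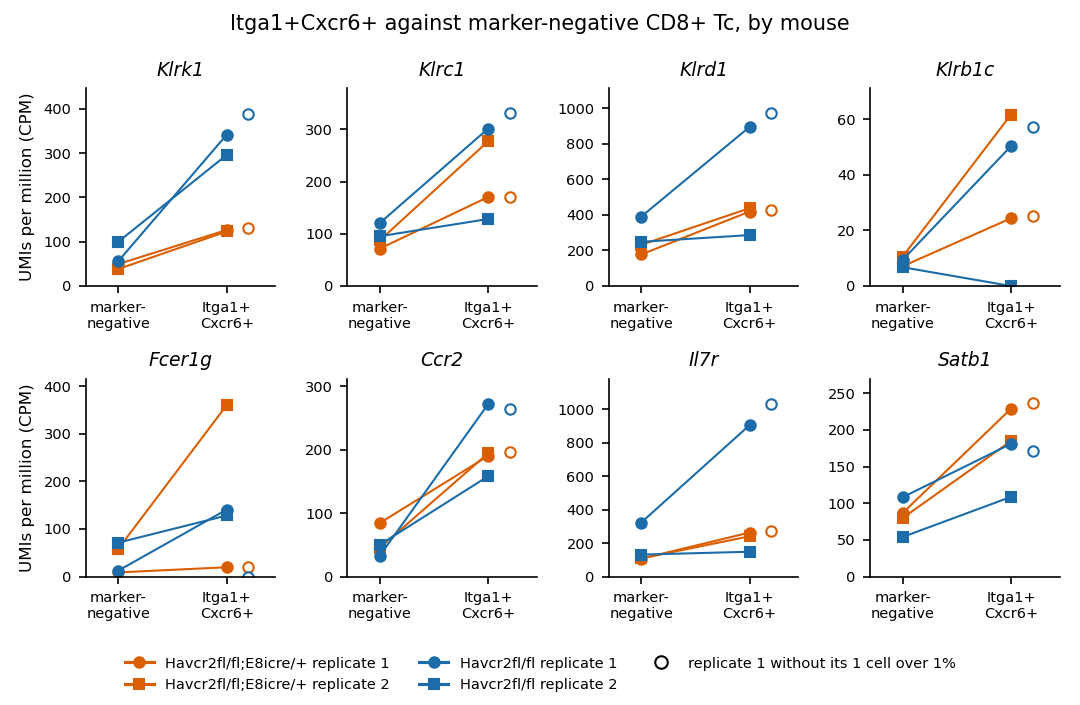
CPM (counts per 1000000 UMIs, TMM-scaled, axes from 0) of 8 genes in marker-negative and Itga1+Cxcr6+ CD8+ Tc, with a line for each mouse, and open circles for the members of both replicates 1 without their 1 cell with over 1% of UMIs from other cell types. Klrk1, Klrc1, Ccr2 and Satb1 rise in each mouse without overlap, Klrb1c is at 0 in the members of Havcr2fl/fl replicate 2, and Fcer1g falls to 0 in Havcr2fl/fl replicate 1 without that cell.

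Against all other CD8+ Tc, which include the cycling, the Tcf7+ and the 694 Nr4a2+ cells, the 4 chemokine genes tested were lower and killer lectin genes higher in members. Of 9360 genes tested, 785 were called (8.39%), 203 higher (2.17%) and 582 lower (6.22%), and 471 were called without Havcr2fl/fl;E8icre/+ replicate 1. CPM values did not overlap for 3.5% of genes with members higher and 10.4% with members lower. The exclusion of Mki67+ and Top2a+ cells is part of the rule, so nothing is read from the fall of all 18 cell cycle genes (median log2 fold change -2.15, beside -0.06 over all genes tested), of which 0 were called against marker-negative cells. Of the 10 genes that fell most by the rule for named genes, each had 0 UMIs in members, and Hist1h3b, Hist1h2bb, Aspm, Cdc20, Bub1b, Esco2, Cdkn3 and Rad51ap1 are genes of histones, mitosis or DNA repair. The other 2 were Tff1, at least 13.3-fold lower over the pooled sums, and Serpine2, which encodes a protease inhibitor, at least 6.29-fold lower.

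All 4 chemokine genes tested fell (median log2 fold change -1.75). The other CD8+ Tc hold the Nr4a2+ cells, which members exclude by the rule, so these values describe the contrast and nothing is read from the count. Ccl3 (chr11:83647844-83649355, - strand), which encodes the inflammatory chemokine MIP-1α, was at 77.6, 160.5, 69.5 and 179.6 CPM in members against 680.3, 334, 451 and 989, without overlap (-2.14 ± 0.18, SE, n = 4, edgeR adjusted p = 4.71e-15). Ccl4, which encodes the related chemokine MIP-1β, was at 344, 519, 308 and 389 against 1166, 644, 839.9 and 1749.9 (-1.36 ± 0.15, adjusted p = 1.64e-10). Neither gene overlapped, and the gap was smallest in Havcr2fl/fl;E8icre/+ replicate 2. Xcl1, which draws cross-presenting dendritic cells, was at 29.1, 6.29, 0 and 19.95 CPM against 34.6, 140.0, 14.6 and 61.8, with overlap between mice (-2.45 ± 0.43, adjusted p = 1.56e-05), a call lost without Havcr2fl/fl;E8icre/+ replicate 2 (-0.90). Ccl5 remained the most abundant of the 4, at 11727, 10887, 17779 and 13666 CPM, and its fall (-0.29 ± 0.06) lost its call without Havcr2fl/fl;E8icre/+ replicate 1 (-0.22) or Havcr2fl/fl replicate 2 (-0.24). Against marker-negative cells, Ccl3 and Ccl4 did not pass the test (-0.84 ± 0.26 and -0.40 ± 0.25, adjusted p = 0.124 and 0.597).

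Of 15 checkpoint and exhaustion genes, 4 fell and 0 rose (median log2 fold change -0.27). Members lack Nr4a2 by the rule and the other CD8+ Tc hold the Nr4a2+ cells, so nothing is read from this count, and against marker-negative cells, which lack Nr4a2 too, Ikzf2 alone fell. Ikzf2 was at 4.85, 22.0, 0 and 29.9 CPM against 271, 111, 59.6 and 175 (-3.36 ± 0.32, edgeR adjusted p = 1.16e-12), and Rgs16, a regulator of G-protein signaling, fell, with a log2 fold change of -2.21 ± 0.49 (adjusted p = 0.00101). Tox2 and Tox, factors of the exhaustion program, fell, with log2 fold changes of -2.24 ± 0.47 and -0.45 ± 0.13 (adjusted p = 0.000376 and 0.0189). The call of Tox2 was lost without Havcr2fl/fl;E8icre/+ replicate 1 (-1.52), and that of Tox without the replicate 1 of either genotype (-0.38 and -0.29). Pdcd1 differed by -0.02 ± 0.13.

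The NK receptor list gave 9 of 14 higher and 0 lower here (median log2 1.07 beside -0.06 over all genes tested), 8 of 12 without the markers, or 8 of the whole list without the 2 cells described above, when Tyrobp turned to -2.15 (edgeR adjusted p = 0.118). Of these, Klre1 lost its call without either Havcr2fl/fl mouse (1.03 to 0.33 and 1.06). The effector genes Csf1 and Ltb, which encode a macrophage growth factor and lymphotoxin β, rose by 1.35 ± 0.21 and 0.98 ± 0.12 (adjusted p = 2.26e-06 and 7.49e-09). Ifng, the interferon-γ gene, fell (-0.78 ± 0.23, adjusted p = 0.0224), a call lost in 3 of the 4 fits that leave out 1 mouse (-0.58 to -0.84), and of 8 cytokine genes 2 rose and 1 fell (median 0.67). Ltb was at 951, 1092, 566 and 728 CPM against 358, 546, 417 and 373, without overlap. Gzmk, a granzyme of memory-like Tc, fell, with a log2 fold change of -1.44 ± 0.21 (adjusted p = 4.45e-07), and Ctsw rose by 0.99 ± 0.13 (adjusted p = 8.1e-09). Of 13 cytotoxic genes, 4 rose and 2 fell in all (median 0.10). Of the other rises, Tnfsf10 lost its call in 3 of the 4 fits that leave out 1 mouse (0.54 to 0.64), Fasl without Havcr2fl/fl;E8icre/+ replicate 2 (0.40) and Srgn without its replicate 1 (0.34).

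Among the other lists, 4 of 13 cytokine receptor genes rose (Il18r1, Il18rap, Ifngr1 and Il7r) and 0 fell (median 0.23), and 2 of 5 chemokine receptor genes rose, Ccr2 and Cxcr3 (median 0.52), the latter lost without Havcr2fl/fl;E8icre/+ replicate 1 (0.82 to 0.47). Il7r was at 262, 245, 893 and 149.6 CPM against 99.6, 155, 228 and 105 (1.23 ± 0.15, adjusted p = 5.12e-09), and Il18rap rose by 1.20 ± 0.17 (adjusted p = 1.12e-07). Of 20 residency genes, Inpp4b rose and Xcl1 fell (median 0.26), and of 18 egress genes, Cd44, Il7r and Ly6c2 rose and Klf2, Eomes and Rasgrp2 fell (median -0.29). The call of Klf2 was lost without Havcr2fl/fl;E8icre/+ replicate 2 (-0.93 to -0.53), and those of Cd44 and Inpp4b in 2 of the 4 fits that leave out 1 mouse (down to 0.45 and 0.31). Of 11 stem-like genes, Bcl2, Il7r and Satb1 rose and Slamf6, Id3 and Myb fell (median -0.90). The rule left out Tcf7+ cells, which number 126, 161, 49 and 77 among the other CD8+ Tc of the 4 mice. It also left out cycling cells, which number 728, 383, 210 and 507. Nothing is therefore read from the genes that rose or fell, and the other lists describe the same contrast. Against marker-negative cells, which lack these genes too, Il7r and Satb1 rose, Bcl2 was not called and 0 of 10 fell. Against all other CD8+ Tc, Myb turned to 0.0992 without the 5 exclusions. Under the full rule it lost its call in 3 of the 4 fits that leave out 1 mouse (-1.83 to -2.26). The call of Bcl2 was lost without Havcr2fl/fl;E8icre/+ replicate 1 (0.57 to 0.34). Effector factors divided likewise, with Id2 and Klf6 higher and Ikzf2 and Eomes lower among 12 (median 0.08). Of 14 adhesion and nectin receptor genes, 2 rose and 2 fell, or 1 rose and 2 fell of 13 without the marker Jaml. Integrin, TGF-β, early response and interferon lists had at most 1 gene called higher and 1 lower, of 11, 14, 9 and 16. Of the lists of other cell types, 3 of 3 B cell, 5 of 8 erythroid, 4 of 8 myeloid and leukemia and 2 of 3 dendritic and platelet genes were called lower and 0 higher. The summed levels did not all follow these calls. Over the 4 mice the myeloid list stood at 5696 CPM in members against 616 in the others, with all but 55 of its 4023 member UMIs in 1 cell, the erythroid list at 3009 against 5071, the B list at 344 against 1509 and the dendritic and platelet list at 41.1 against 101. In Havcr2fl/fl;E8icre/+ replicate 1 the erythroid, B and dendritic and platelet lists were higher in members (10112, 350 and 83.5 CPM against 5372, 302 and 48.2). Without the cells above 1% in any CD8+ Tc, 0 B, erythroid or dendritic and platelet genes were called, of 3, 5 and 1 tested, and 4 of 8 myeloid genes were called lower. Of 4 genes of CD4+ and regulatory Tc, 0 were called.

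The 10 genes that rose most by the rule for named genes were Anxa1, Ccr2, Ifitm3, AA467197, Apobr, Fcer1g, Jaml, Itgax, Gm26614 and Cited4, with Jaml a marker. Ccr2 was at 189, 198, 268 and 159.6 CPM against 38.1, 35.8, 43.9 and 40.2 (2.37 ± 0.18, edgeR adjusted p = 6.85e-17), a narrow range among the mice in both populations. AA467197 was at 150.4, 119.6, 139 and 149.6 against 23.6, 30.9, 50.0 and 36.9 (2.07 ± 0.22, adjusted p = 7.2e-11), with UMIs in 56 of 159 members. Apobr, the apolipoprotein B receptor gene, was at 72.8, 44.0, 29.8 and 49.9 against 8.91, 16.5, 10.3 and 12.6 (2.05 ± 0.36, adjusted p = 2.27e-05). These 3 did not overlap. Itgax, Gm26614 and Cited4 had 12, 15 and 17 UMIs in members, and each lost its call in at least 2 of the 4 fits that leave out 1 mouse. Their log2 fold changes of 1.94, 1.83 and 1.79 were 1.43 to 2.08, 1.78 to 1.84 and 1.76 to 1.77 in these fits. Anxa1 fell to 1.34 and lost its call without Havcr2fl/fl replicate 1, and Ifitm3 kept its call there at 1.18. Without the 2 cells described above, Anxa1 went from 2.81 to 2.17 and Ifitm3 from 2.25 to 1.54, and both kept their calls. Of the 63 genes called here that were carried through each alternative setting, 37 kept their call in each fit that leaves out 1 mouse.

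**Figure D3:**
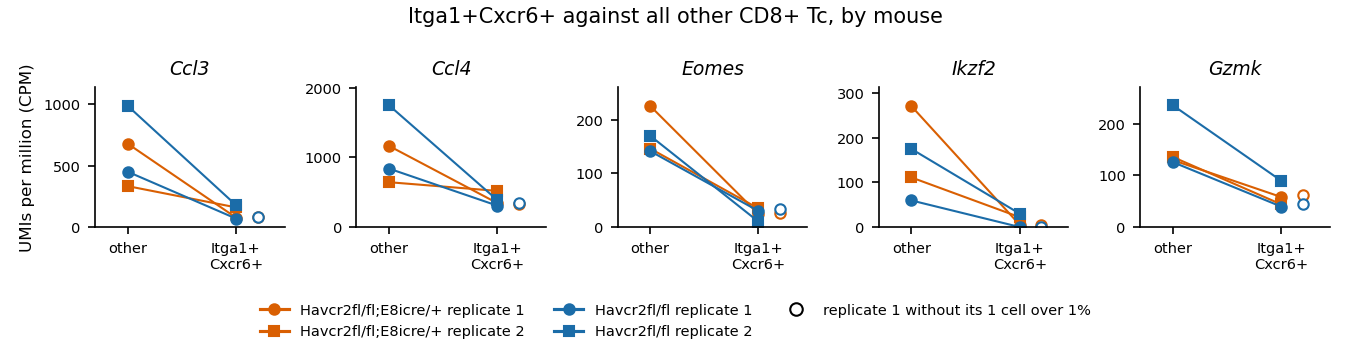
CPM (counts per 1000000 UMIs, TMM-scaled, axes from 0) of 5 genes in all other and in Itga1+Cxcr6+ CD8+ Tc, with a line for each mouse, and open circles for the members of both replicates 1 without their 1 cell with over 1% of UMIs from other cell types. All 5 genes are lower in members in each mouse without overlap between the populations.

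Against Nr4a2+ CD8+ Tc, 3 of 4 chemokine genes fell in members, and the homing and cytokine receptor genes Ccr2, Cxcr3 and Il7r rose. Of 7654 genes tested, 396 were called (5.17%), 198 in each direction (2.59%), and 172 were called without Havcr2fl/fl;E8icre/+ replicate 1. Values did not overlap for 3.21% of genes with members higher and 4.64% with members lower. Of 15 checkpoint and exhaustion genes, 7 fell and 0 rose (median log2 fold change -0.85 beside -0.03 over all genes tested): Ikzf2, Pdcd1, Rgs16, Tox2, Tox, Cd38 and Lag3. The comparison cells were chosen for Nr4a2, a gene of the same program that members lack by the rule, so these values describe the contrast and nothing is read from the count. Against marker-negative cells 1 of the 15 fell. The chemokine, receptor and other values of this comparison likewise describe the contrast with cells chosen for Nr4a2.

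Tox was at 409, 586, 282 and 474 CPM in members against 848, 995, 947 and 631, without overlap (-0.95 ± 0.14, edgeR adjusted p = 1.21e-05). Pdcd1 was at 370.2, 308, 322 and 217 against 467, 414, 522 and 477 (-0.58 ± 0.17, adjusted p = 0.0331), and Lag3, an inhibitory receptor for MHC class II, at 297, 351, 231 and 217 against 442, 410.5, 511 and 459.6 (-0.64 ± 0.17, adjusted p = 0.0168). Neither gene overlapped, and both were at 217 CPM or more in each mouse's members. The call of Pdcd1 was lost in 3 fits that leave out 1 mouse (-0.47 to -0.70) and that of Lag3 in 2 (-0.55 and -0.68).

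Ccl3 was at 77.9, 157, 70.4 and 178 CPM against 1358, 936, 1133 and 2416, a log2 fold change of -3.44 ± 0.24 (edgeR adjusted p = 1.47e-12). Ccl4 fell, with a log2 fold change of -2.67 ± 0.25 (adjusted p = 1.07e-09), as did Ccl5 (-0.83 ± 0.17, adjusted p = 0.0014). Against marker-negative cells, which lack Nr4a2 as members do, Ccl3 and Ccl4 did not pass the test, as given above. Ifng was at 39.0, 70.9, 20.1 and 79.0 against 129, 134, 229 and 179.8, without overlap (-1.50 ± 0.31, adjusted p = 0.00128). Gzmk and Nkg7 fell, with log2 fold changes of -1.52 ± 0.36 and -0.59 ± 0.07 (adjusted p = 0.00641 and 6.04e-07), as did Gzma and Prf1 (-1.83 ± 0.42 and -0.79 ± 0.21, adjusted p = 0.00516 and 0.0145). Gzma lost its call without Havcr2fl/fl;E8icre/+ replicate 2 (-1.48), and Prf1 without Havcr2fl/fl;E8icre/+ replicate 1 (-0.54) or Havcr2fl/fl replicate 2 (-0.65). Of 13 cytotoxic genes, these 4 fell and Srgn, which encodes the granule proteoglycan serglycin, and Ctsw rose (median -0.11). Il2rb, the β chain of the IL-2 and IL-15 receptor, fell, with a log2 fold change of -0.81 ± 0.11 (adjusted p = 4.13e-06).

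Il7r was at 263, 240.4, 905 and 148 CPM in members against 21.1, 34.1, 61.8 and 21.3 (3.41 ± 0.26, edgeR adjusted p = 1.32e-11). Ccr2 was at 190.0, 194, 272 and 158 against 8.02, 8.84, 3.64 and 9.32, a rise of 4.69 ± 0.42 (adjusted p = 5.74e-10). Ly6c2, a surface antigen of effector and memory Tc, was at 214, 311, 1267 and 504 against 21.1, 32.8, 27.3 and 45.3 (3.94 ± 0.36, adjusted p = 6.32e-10). Cxcr3, a receptor of interferon-induced chemokines, and Itgb7, a chain of gut-homing integrins, rose by 1.66 ± 0.24 and 1.26 ± 0.18 (adjusted p = 1.14e-05 and 7.23e-06). None of these 5 overlapped. Of 5 chemokine receptor genes, Ccr2 and Cxcr3 rose and 0 fell (median 1.11), and of 12 cytokine receptor genes, Il7r, Il18r1, Il18rap and Ifngr1 rose and Il2rb fell (median 0.31).

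Of 19 egress genes, 6 were called higher than in Nr4a2+ cells and 1, Eomes, lower (median log2 1.00). Klf2, which drives S1pr1, was at 117, 58.6, 231 and 227 CPM against 38.6, 46.7, 115 and 71.9 (1.12 ± 0.30, edgeR adjusted p = 0.0168). Its call was lost without the 2 cells described above (1.00, adjusted p = 0.0796), without Havcr2fl/fl;E8icre/+ replicate 1 (0.95) and without Havcr2fl/fl replicate 2 (0.92). The others were Cd44, S1pr4, Il7r, Ly6c2 and Itgb7. Without Havcr2fl/fl;E8icre/+ replicate 1 or Havcr2fl/fl replicate 2, the calls of S1pr4 (1.04 and 1.03) and Cd44 (0.72 and 0.98) were lost. Of 19 residency genes, Inpp4b and Itgb1 rose and 0 fell, and both calls were lost without Havcr2fl/fl;E8icre/+ replicate 1 (0.41 and 0.87).

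The 5 genes that rose most by the rule were S100a8, Anxa1, Ccr2, Ly6c2 and Itgax. S100a8, a neutrophil gene, rested on 1 cell: its log2 fold change of 6.93 became 0.62 (edgeR adjusted p = 0.584) without the 2 cells. Anxa1 went from 5.66 to 4.35 and kept its call. Itgax, at 3.56, lost its call without Havcr2fl/fl;E8icre/+ replicate 1 (3.31) or Havcr2fl/fl replicate 2 (3.30). The 5 that fell most were Tff1 (at least 18.9-fold lower over the pooled sums), Serpine2 (at least 12.1-fold), Spp1, which encodes osteopontin, and, with 1 UMI each in members, Atp2b2 and Neb. Spp1 had 2 UMIs in members against 264 (27.0-fold lower over the pooled sums, 95% counting interval 7.39 to 224). Neb lost its call without either Havcr2fl/fl;E8icre/+ mouse (fitted log2 fold change -4.03 to -3.46 and -3.52). Atp2b2 lost its call without Havcr2fl/fl;E8icre/+ replicate 2 (-4.27 to -3.34). NK receptors were called higher for 8 of 13 genes, or 7 of 11 without the markers, with Klrk1 at 2.09 ± 0.32 (adjusted p = 2.22e-05). The 8 include Tyrobp, with 58 of its 60 member UMIs in 1 cell, Hcst, whose call was lost in each fit that leaves out 1 mouse (0.31 to 0.36), and the marker Klrc2, lost in 2 of them (0.66 and 0.72). Fcer1g, also among the 8, lost its call without Havcr2fl/fl;E8icre/+ replicate 2 (1.46 to 1.43). Of the 47 genes called here that were carried through each alternative setting, 28 kept their call in each fit that leaves out 1 mouse.

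Against Cx3cr1+ CD8+ Tc, most genes of egress and circulation fell in members. Of 7654 genes tested, 218 were called (2.85%), 70 higher (0.915%) and 148 lower (1.93%) in members, with 112 called without Havcr2fl/fl;E8icre/+ replicate 1 and 96 without its replicate 2. Values did not overlap for 2.57% of genes with members higher and 3.06% with members lower. Of 19 egress and circulation genes, 13 fell and 1, Il7r, rose (median log2 fold change -1.84 beside -0.0040 over all genes tested). The comparison cells were chosen for Cx3cr1, which marks circulating effector Tc and which members lack by the rule, so these values too describe the contrast. Against marker-negative cells 1 of the 19 fell. Of the 13, 7 kept their call in each fit that leaves out 1 mouse. Cmah lost its call in 3 of the 4 fits that leave out 1 mouse (-1.91 to -2.35) and Lef1 in 2 (-1.61 and -1.96), as did Il7r (0.71 and 0.98), and Eomes without Havcr2fl/fl;E8icre/+ replicate 1 (-1.46).

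Klf2 was at 117, 58.6, 231 and 227 CPM in members against 824, 1046, 1283 and 1161, a log2 fold change of -2.98 ± 0.24 (SE, n = 4, edgeR adjusted p = 1.4e-10). The populations were far apart in each mouse. Klf3, a repressor that shares KLF2 targets, was at 14.6, 6.16, 101 and 9.88 against 262, 224, 271 and 122 (-3.31 ± 0.46, adjusted p = 1.4e-05), and without the 2 cells it was at -4.12. Zeb2, which drives terminal effector differentiation, was at 73.1, 15.4, 50.3 and 29.6 against 355, 279, 167 and 179.6 (-2.68 ± 0.29, adjusted p = 8.59e-08). Both were lower in members in each mouse without overlap between populations.

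The sphingosine-1-phosphate receptor genes fell together. S1pr5 had 1 UMI in members and 44 in Cx3cr1+ cells, 36.9-fold lower over the pooled sums (95% counting interval 6.29 to 1491, edgeR adjusted p = 0.00032), a call lost without Havcr2fl/fl;E8icre/+ replicate 2 (fitted log2 fold change -5.43 with and -4.18 without it). S1pr1 was at 68.2, 12.3, 101 and 9.88 CPM against 162, 155, 235 and 115 (-1.99 ± 0.41, adjusted p = 0.00244), also lost without that mouse (-1.42). S1pr4 fell, with a log2 fold change of -1.21 ± 0.26 (adjusted p = 0.00337) and kept its call. Rasgrp2, which activates integrins through RAP1, fell, with a log2 fold change of -2.46 ± 0.29 (adjusted p = 4.83e-07), and Klrg1, a receptor of terminal effectors, fell as well (-2.64 ± 0.60, adjusted p = 0.00695), the latter lost without either Havcr2fl/fl;E8icre/+ mouse (-2.68 and -1.99). Itga4 and Itgb1, the chains of VLA-4, fell, with log2 fold changes of -0.80 ± 0.13 and -0.97 ± 0.23 (adjusted p = 0.000278 and 0.00915). Itgb1 also pairs with the integrin chain of the rule.

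Of 19 residency genes tested, Rgs1, Inpp4b and Ahr rose and Itgb1 fell (median log2 0.49). Ahr, a ligand-activated factor that maintains resident lymphocytes, was at 29.2, 30.8, 10.1 and 29.6 CPM against 0, 4.57, 0 and 0 (20 UMIs against 1, 23.8-fold higher over the pooled sums, 95% counting interval 3.81 to 988, edgeR adjusted p = 0.00463), a call lost without Havcr2fl/fl;E8icre/+ replicate 1 (fitted log2 fold change 4.43 with and 3.91 without it). Rgs1, which dampens chemokine receptor signaling, was at 170.5, 133, 211 and 168 against 68.7, 114, 58.7 and 57.7 (1.06 ± 0.27, adjusted p = 0.0198), lost without Havcr2fl/fl;E8icre/+ replicate 1 (0.96) or Havcr2fl/fl replicate 2 (0.93). Inpp4b, a phosphoinositide phosphatase, rose by 1.02 ± 0.21 (adjusted p = 0.00337) and lost its call without Havcr2fl/fl;E8icre/+ replicate 1 (0.90). Cd69 differed by 0.02 ± 0.38.

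The main killer lectin genes did not pass the test against Cx3cr1+ cells, with Klrk1 at -0.52 ± 0.28, Klrc1 at 0.15 ± 0.19 and Klrd1 at -0.06 ± 0.18 (edgeR adjusted p = 0.427, 0.822 and 0.938). Of 13 genes of the list, Fcer1g, Tyrobp and the marker Cd160 rose and Klrg1 fell (median 0.15), or 2 rose and 1 fell of 11 without the markers, the call of Cd160 was lost in 2 of the 4 fits that leave out 1 mouse (0.66 and 0.80), and 58 of the 60 Tyrobp UMIs lay in 1 cell, as given above. Gzma, a granzyme of circulating effectors, was at 375, 179, 684 and 1156 CPM against 2694, 2343, 1464 and 2649, lower in 4 of 4 mice without overlap (-2.28 ± 0.43, adjusted p = 0.00116). Id2 and Ltb rose by 0.80 ± 0.10 and 0.96 ± 0.14 (adjusted p = 1.58e-06 and 1.72e-05). The other genes that changed most by the rule were Fcer1g, Anxa1, Ckb and Frmd4a, which rose, and Kremen2, Rap1gap2, Prr5l and Ier3, which fell. Of these, Frmd4a and Rap1gap2 lost their calls without either Havcr2fl/fl;E8icre/+ mouse (2.14 and 2.61, and -3.08 and -2.81), and Kremen2 in 3 of the 4 fits that leave out 1 mouse. Without the 2 cells, Anxa1 went from 2.99 to 1.49 (edgeR adjusted p = 0.21) and Prr5l from -3.51 to -5.01. Ier3, an early response gene, fell, with a log2 fold change of -3.35 ± 0.63 (edgeR adjusted p = 0.00102). Of the 39 genes called here that were carried through each alternative setting, 17 kept their call in each fit that leaves out 1 mouse, among them Klf2, Klf3, Zeb2, S1pr4, Rasgrp2, Itga4, Itgb1, Gzma, Id2 and Ltb.

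**Figure D4:**
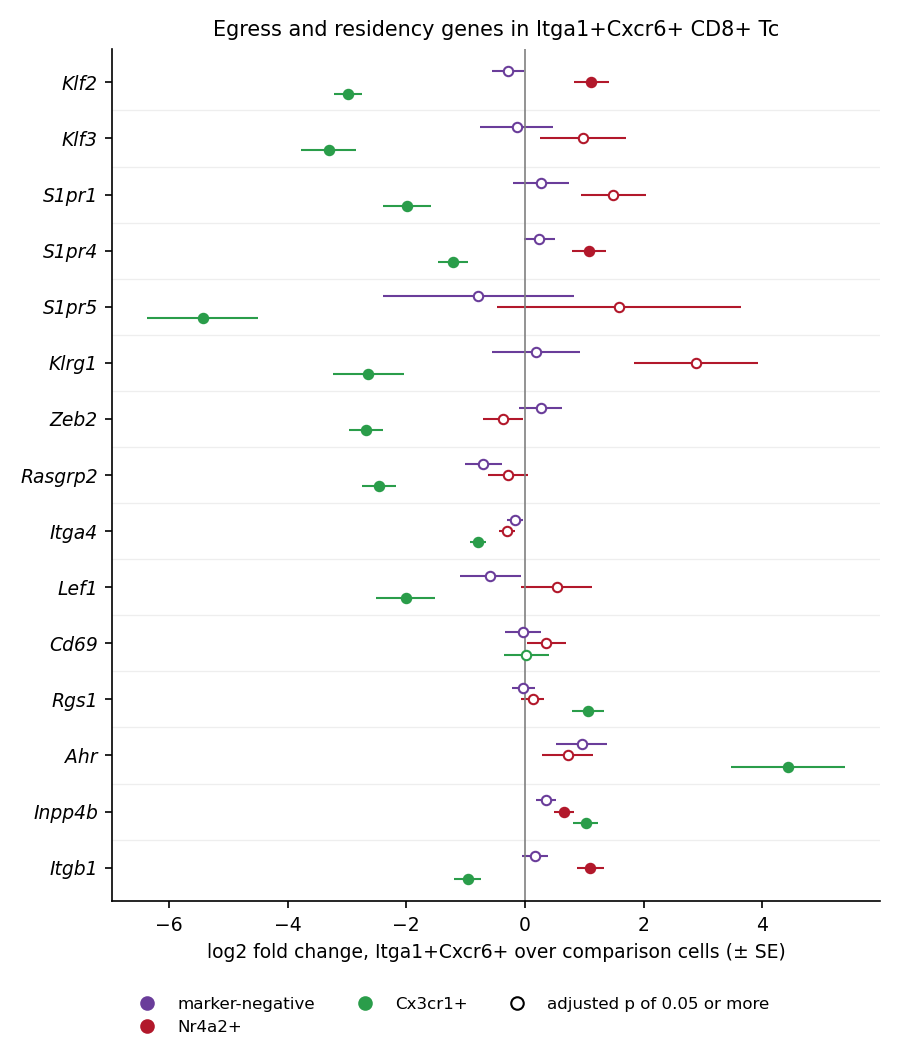
Log2 fold change (± SE, n = 4 mice) of 15 egress and residency genes in Itga1+Cxcr6+ CD8+ Tc over marker-negative, Nr4a2+ and Cx3cr1+ CD8+ Tc, filled where the edgeR adjusted p is under 0.05. Klf2, Klf3, the S1pr genes, Klrg1 and Zeb2 lie to the left with filled points against Cx3cr1+ cells, and against marker-negative cells all 15 points are open. The egress genes called against marker-negative cells, Il7r, Ly6c2 and Eomes, are not among the 15.

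The same member sums enter each of these comparisons, so their results are not independent of each other and are set side by side only. The log2 fold change of Eomes was -2.64, -2.54, -3.04 and -1.84 against all other, marker-negative, Nr4a2+ and Cx3cr1+ CD8+ Tc. That of Satb1 was 1.37, 1.12, 1.75 and 0.83, and that of Id2 0.95, 0.49, 0.80 and 0.80, in the same order. All of these passed the edgeR test at an adjusted p under 0.05, but against Cx3cr1+ cells the call of Eomes was lost without Havcr2fl/fl;E8icre/+ replicate 1 (-1.46) and that of Satb1 in 3 fits that leave out 1 mouse (0.70 to 0.87).

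**Figure D5:**
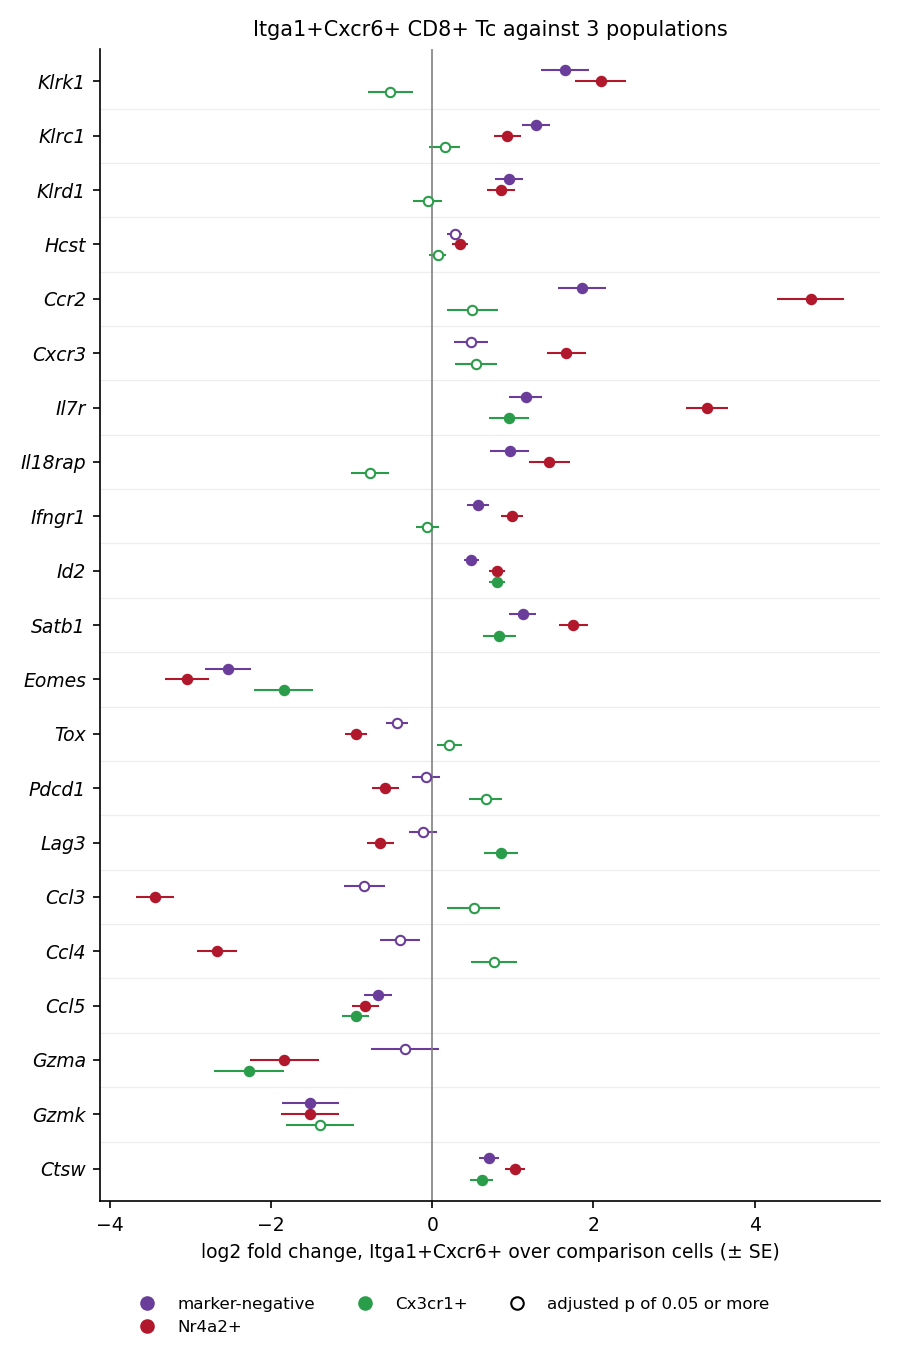
Log2 fold change (± SE, n = 4 mice) of 21 genes in Itga1+Cxcr6+ CD8+ Tc over marker-negative, Nr4a2+ and Cx3cr1+ CD8+ Tc, filled where the edgeR adjusted p is under 0.05. Satb1, Id2 and Ctsw lie to the right and Eomes and Ccl5 to the left in all 3 comparisons, while Klrk1 is at 1.65 and 2.09 against the first 2 populations and at -0.52 against Cx3cr1+ cells.

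Members carried αβ receptor transcripts. Trac had a UMI in 143 of 159 members, Trbc2 in 154 and Trdc in 0, which allows up to 4.25 CPM over all members. Of 4 tested genes of γδ T, NKT and NK cells, Klrb1c and Tcrg-C2 rose against both marker-negative and all other CD8+ Tc. Tcrg-C2, a γ chain constant gene that many αβ Tc also transcribe, was at 214, 256, 221 and 79.0 CPM in members against 148, 133, 76.8 and 95.4 in marker-negative cells (0.78 ± 0.19, edgeR adjusted p = 0.0313), lower than in these in Havcr2fl/fl replicate 2, and the call was lost in 3 fits that leave out 1 mouse (0.61 to 0.88). The log2 ratio of Cd8b1 to Cd8a differed from that of all other CD8+ Tc by -0.0275 ± 0.142 (SD, n = 4 mice), higher in 2 of 4 mice. Both genes were read by the rule, through their sum, so the ratio is given as a description.

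V gene transcripts were seen in few members. The most frequent Vβ gene was Trbv3 in Havcr2fl/fl;E8icre/+ replicate 2, in 8 of the 25 members with any Trbv UMI, beside 18 of 72 marker-negative cells and 61 of 367 of all other CD8+ Tc of that mouse. In Havcr2fl/fl;E8icre/+ replicate 1 the most frequent one was Trbv29 (2 of 6 members), in Havcr2fl/fl replicate 1 Trbv2 and Trbv16 were level (2 of 5 each), and in its replicate 2 it was Trbv19 (2 of 7). Clones were not counted from these.

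The donor tag, an oligonucleotide-labelled antibody to H-2Kb, was lower in members than in all other CD8+ Tc of the same mouse. Median tag counts were 1090, 1357.5, 1766 and 914.5 in members and 1541, 1936.5, 2362.5 and 1221 in the others, 0.726-fold on average and lower in 4 of 4 mice (exact sign-flip permutation test, two-sided, p = 0.125, the smallest possible). Against marker-negative cells, which have a similar RNA depth, it was 0.847-fold, again lower in 4 of 4. Cx3cr1+ cells were lower still, with medians of 995, 1268, 1516 and 863. A tag more than 3 median absolute deviations under its library's median was found in 1 of 159 members, in Havcr2fl/fl;E8icre/+ replicate 2.

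Between the donor genotypes, 0 of 2596 genes tested in members were called (0%), with 123 at an unadjusted p under 0.05. DESeq2 called 0, with 29 at an unadjusted p under 0.05. With 1 mouse left out, and the lone mouse of its genotype assumed to vary like the others, between 13 and 47 were called, and which mouse was left out decided the count. With 15 to 58 member cells per mouse, these sums are shallow. In sums simulated with the same spread for every gene, 12% of genes given a log2 change of 1 and 81.5% of genes given 2 were recovered. The smallest edgeR adjusted p, 0.218, belonged to Lgals3, which encodes galectin-3, at 255, 227, 786 and 754 CPM (log2 fold change with E8icre/+ over without, -1.68 ± 0.27, SE, n = 2 against 2). Both Havcr2fl/fl mice stood above both Havcr2fl/fl;E8icre/+ mice. Of the 74 UMIs of Havcr2fl/fl replicate 1, 25 lay in the cell rich in myeloid RNA, and without the 2 cells that mouse stood at 604 CPM and the log2 fold change was -1.47 (adjusted p = 0.139). The same order was seen for Klrk1 at 130.2, 126, 361 and 309.8 CPM (-1.39 ± 0.28, edgeR adjusted p = 0.358) and for Gzmb, granzyme B, at 451, 385, 1031 and 909 (-1.22 ± 0.27, adjusted p = 0.364). In Havcr2fl/fl replicate 2, 51 of the 88 Gzmb UMIs lay in 1 cell. Without the highest cell of each mouse, Gzmb stood at 417, 313, 667 and 413 CPM (without TMM factors), so that the genotypes overlapped. Lgals3, at 218, 191, 578 and 655 CPM, and Klrk1, at 90.7, 102, 249 and 277, still did not overlap. These genes were chosen after their values were seen. Havcr2 was too sparse to be tested. Whether the genotype effect in members differed from that in all other CD8+ Tc was tested as an interaction, which called 22 of 10161 genes (0.217%), 7 higher (0.0689%) and 15 lower (0.148%), most of them hemoglobin and neutrophil genes of the 2 cells described above.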

How the data were processed

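The deposited matrices held UMI counts of 32285 genes and 1 antibody tag per barcode, made by the authors from 10x Genomics 3′ v3.1 libraries with Cell Ranger 6.1.2 and mm10 (equal to GRCm38). The labels give a pan-T cell kit for isolation and the study's methods cell sorting, so the purity of the input is not settled. Cells entered with 500 or more genes, 1000 or more UMIs and a mitochondrial share of 10% or less (11632 in all), and the tag stayed out of the sums. Doublets were called with Scrublet in scanpy 1.11.5 (Python 3.11.15), which marked 2, 5, 9 and 109 cells and 0 members, and were removed only as an alternative. So few calls in the first 3 libraries mean that doublets there cannot be taken as removed even in that alternative.

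UMIs were summed per mouse and population and tested with edgeR 4.0.16 in R 4.3.3 by quasi-likelihood, after TMM scaling and filterByExpr with a minimum count of 10, with Benjamini-Hochberg values under 0.05 called. The mouse was a block between populations and no block was used between genotypes. The 14 genes of the rule stayed in library sizes and out of the tests. A fold change is in log2, its SE was taken from the quasi-likelihood F statistic, and CPM values carry the TMM factors of their fit. The titles number the samples, 2 a genotype, and each library was taken as a separate mouse. The edgeR fits were also run on simulated sums at the real depths. These had the same spread for every gene, no other differences between mice and no filter on low counts. The choice of cells, doublet calls and permutation tests were not simulated, and recovery in the real sums may differ. Against marker-negative cells (7666 genes), 45% of 200 genes given a log2 change of 1 and 87% of 200 given 2 were recovered. The shares were 26.5% and 82% against all other, 45% and 84% against Nr4a2+ and 32% and 74.5% against Cx3cr1+ CD8+ Tc (9372, 7666 and 7666 genes), 12% and 81.5% between genotypes (2603 genes) and 4.5% and 28.5% for the interaction (10173 genes).

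The members and the gene lists were chosen with earlier results of these data known. Named were Havcr2, the markers, the 10 genes that rose and the 10 that fell most past the threshold against all other CD8+ Tc with 1 direction in all 4 mice and at least 20 CPM on average in the higher population, 5 and 5 in each other comparison, and from each list the 4 genes highest in members and those called. Some genes, among them Cd7 and Lgals3, were named outside this rule. Zfp683 and the removal of the 2 members and 67 other CD8+ Tc rich in other RNA were added after the data were seen. Gene positions are from GENCODE M21, which matched 32158 of 32285 gene IDs. Alternatives were DESeq2 1.42.0, its size factors, no filter on low counts, each mouse left out, stricter cell filters, cells thinned to 2000 UMIs and looser and stricter forms of the rule.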

Additional observations from a re-analysis of the deposited data

Results flagged for a closer look

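The genotype effect (Havcr2fl/fl;E8icre/+ over Havcr2fl/fl) in Itga1+Cxcr6+ cells differed from that in all other CD8+ Tc for 22 of 10161 genes in an edgeR interaction test (0.217%), with 7 effects higher and 15 lower in members. Of these genes, Hbb-bs, Hbb-bt, Hba-a1 and Hba-a2 are hemoglobin genes and S100a8, S100a9, Lcn2, Ngp, Lyz2, Retnlg, Hp, Wfdc21 and Tyrobp are genes of neutrophils and other myeloid cells. Without the 2 members and the 67 other CD8+ Tc rich in RNA of other cell types, 5 genes were called (Ifitm1, Dennd4a, Gzma, Gzmb and Ly6c2), and DESeq2 called 0. Without Havcr2fl/fl replicate 1, 6 were called.

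For Gzma, the effect in members minus that in other CD8+ Tc was -1.56 (adjusted p = 1.18e-08). Members held 376, 183, 664 and 1133 CPM and the others 1419, 823, 426 and 2982, so the order of the mice differed between the populations. In Havcr2fl/fl replicate 2, 80 of the 117 member UMIs lay in 1 cell, as did 45 of 68 in replicate 1, and 34 of 77 and 40 of 58 in Havcr2fl/fl;E8icre/+ mice. For Gzmb the difference was -1.15 (adjusted p = 0.000424), where 51 of the 88 member UMIs of Havcr2fl/fl replicate 2 lay in 1 cell, and for Ly6c2 it was -1.01 (adjusted p = 0.018). With cells thinned to 2000 UMIs, the differences of Gzma and Gzmb turned to 0.62 and 0.22. All 3 calls were lost without Havcr2fl/fl replicate 1, at -0.68, -0.53 and -0.57. The calls of Gzmb (-1.12) and Ly6c2 (-1.06) were also lost without Havcr2fl/fl;E8icre/+ replicate 1, and that of Ly6c2 without its replicate 2 (-1.003).

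For Ifitm1, an interferon-induced membrane protein gene, the difference was 4.39 (edgeR adjusted p = 4.19e-49). With 1 mouse left out, it lay between 3.44 and 16.9. Its UMIs in members numbered 216, 43, 0 and 68, of which 167, 37 and 24 lay in 1 cell each of the 3 mice that had any. The part of single cells in these differences was not tested further.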

How the results depend on the processing

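Counts of called genes against all other, marker-negative, Nr4a2+ and Cx3cr1+ CD8+ Tc were 785, 80, 396 and 218. Without each mouse in turn they were 471 to 761, 36 to 91, 172 to 336 and 96 to 243. With Itga1 and Cxcr6 at 2 UMIs or more they were 271, 28, 230 and 133, and without the mouse as a block 349, 11, 157 and 79. With cells thinned to 2000 UMIs before the rule they were 106, 65, 155 and 85, where fewer UMIs and fewer members entered. DESeq2 gave 359 for the first and the rule without exclusions 98. Without a filter on low counts the second rose to 196. The cause of the DESeq2 and filter changes was not tested. Without the 2 members and 67 other cells rich in other RNA, 743, 75, 352 and 205 of the calls were shared with 830, 96, 372 and 262 called. Other settings stayed within 1.5 times.

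The genotype test called 0 genes in members, 48 without a filter on low counts, 8 at 2 UMIs of both genes and 13 to 47 without each mouse. The labels do not say that equal replicate numbers mark a pair. The correlation of deviations between equal numbers was -0.0317 over 2603 genes, which cannot decide this in sums this shallow. A fit with the replicate block called 0, with 121 at an unadjusted edgeR p under 0.05. The difference in genotype effect gave 22 calls, 0 with DESeq2, 0 thinned, 0 without exclusions, 5 without the 2 cells and 6 to 34 without each mouse. The share of members kept its direction in all settings, with log2 ratios of 0.239 to 1.08 without each mouse. The Cd8b1 to Cd8a difference of -0.0275 turned to 0.0184 thinned, 0.105 at 2 UMIs, 0.0709 without exclusions and -0.0878 to 0.017 without each mouse.

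Of the single genes, 2431 values kept their direction and side of the threshold, 492 lost the call, 18 gained it and 13 reversed. Tyrobp against all other CD8+ Tc turned to -2.01 with DESeq2, -2.15 without the 2 cells and -3.23 without Havcr2fl/fl replicate 1 (highest without a mouse 2.52), and against marker-negative cells to -2.24 without that mouse (highest 3.92). Cd160 against all other CD8+ Tc turned to 0.107 without Havcr2fl/fl;E8icre/+ replicate 2 and 0.0515 without Havcr2fl/fl replicate 1 (lowest without a mouse -0.160), and Myb to 0.0992 without exclusions. Havcr2 against marker-negative cells turned to 0.237 with DESeq2, 0.0106 with stricter cell filters, 0.0525 without Havcr2fl/fl;E8icre/+ replicate 1 and 0.571 without Havcr2fl/fl replicate 2 (lowest without a mouse -0.509). The genotype differences of Gzma and Gzmb turned to 0.620 and 0.221 when thinned. With 92555 to 320468 member UMIs per mouse, genes under about 32.4 CPM may be missed in the shallowest mouse.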
